A study of Homo sapiens with 12 samples.

Results

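The response to SAHM1 was compared between 2 established T-ALL lines (human T-cell acute lymphoblastic leukaemia), KOPT-K1 and HPB-ALL, to find the genes that moved in opposite directions and those that moved alike. For each gene, the change in KOPT-K1 (mean of the SAHM1 arrays minus mean of the DMSO arrays, in log2) was subtracted from the change in HPB-ALL. A positive difference therefore means that the HPB-ALL response was the higher of both. All 12 of 12 arrays entered the comparison, with 41097 of 54675 probe sets, those that carried exactly 1 gene symbol, and these gave 19775 genes. The 4 groups were KOPT-K1 with the vehicle DMSO, KOPT-K1 with SAHM1 at 20 µM, HPB-ALL with DMSO and HPB-ALL with SAHM1 at 20 µM, each held for 24 hours as 3 cultures with 1 array per culture. SAHM1 is a hydrocarbon-stapled helical peptide derived from mastermind-like 1, made to occupy the mastermind site of the NOTCH transcription complex. Each line stands for itself, so a difference here is one between these 2 lines and p-values measure the spread between cultures of the same line.

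All values are log2 ratios to the DMSO mean of that line, as the deposited values are such ratios. Such ratios carry no expression level, and no contrast of the untreated lines with each other. The labelled T-cell identity could therefore not be checked against marker levels, only by how markers moved. Among 15 measured markers of B, myeloid and erythroid cells, 1 was called in KOPT-K1 (MS4A1, 0.32 ± 0.07) and none in HPB-ALL (limma, 0 also at an unadjusted p under 0.05). A gene was called where limma's Benjamini-Hochberg adjusted p was under 0.05 over all 19775 genes. Errors after ± are standard errors from that fit, with n = 3 arrays per group, and the median standard error was 0.085 for a change within a line and 0.12 for the difference.

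As background, NOTCH receptors are cut on activation, and their intracellular part binds the DNA-bound protein RBPJ together with a mastermind protein to switch on target genes such as HES1, HES4, DTX1 and MYC. Both lines are known for activated NOTCH1. ATF4 is a transcription factor made when amino acids are short or proteins misfold. With partners of the C/EBP family it switches on amino acid transporters, enzymes of amino acid synthesis and tRNA synthetases, as well as CHAC1, DDIT3 and TRIB3.

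The upstream sequences below show the letters that these 2 programmes are known to be read through, in genes that later paragraphs describe. They are the 250 bases before the RefSeq start (GRCh38.p14), written 5′ to 3′ in the direction of the gene. In CHAC1, ASNS, GARS1 and CEBPG, which moved in opposite directions, capitals mark the C/EBP-ATF core TGATGNAA, searched on both strands. In HES1 and HES4, which fell in both lines, capitals mark the RBPJ core GTGGGAA. The choice beyond CHAC1 was made after values were seen, and only genes with a match are printed. Of the 8 genes on the amino acid lists that were first looked up and had a window, 7 (ASS1, VLDLR, SESN2, PSAT1, SLC3A2, CEBPB and SLC7A5) held no match and CHAC1 held 1.
CHAC1: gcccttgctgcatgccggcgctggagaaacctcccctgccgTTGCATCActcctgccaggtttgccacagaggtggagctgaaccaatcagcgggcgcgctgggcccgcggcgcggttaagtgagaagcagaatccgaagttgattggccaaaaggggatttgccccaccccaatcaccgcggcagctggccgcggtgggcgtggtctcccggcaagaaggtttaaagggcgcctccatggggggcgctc
ASNS: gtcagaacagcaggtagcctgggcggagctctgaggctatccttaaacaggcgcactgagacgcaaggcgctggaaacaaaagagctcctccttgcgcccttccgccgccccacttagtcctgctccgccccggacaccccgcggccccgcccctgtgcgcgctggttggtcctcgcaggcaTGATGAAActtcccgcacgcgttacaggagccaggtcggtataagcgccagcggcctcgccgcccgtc
GARS1: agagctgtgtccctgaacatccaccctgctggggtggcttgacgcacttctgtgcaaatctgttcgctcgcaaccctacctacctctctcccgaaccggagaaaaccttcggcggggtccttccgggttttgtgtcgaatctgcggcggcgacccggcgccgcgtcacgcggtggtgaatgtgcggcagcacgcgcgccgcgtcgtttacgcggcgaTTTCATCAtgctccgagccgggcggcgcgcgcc
CEBPG: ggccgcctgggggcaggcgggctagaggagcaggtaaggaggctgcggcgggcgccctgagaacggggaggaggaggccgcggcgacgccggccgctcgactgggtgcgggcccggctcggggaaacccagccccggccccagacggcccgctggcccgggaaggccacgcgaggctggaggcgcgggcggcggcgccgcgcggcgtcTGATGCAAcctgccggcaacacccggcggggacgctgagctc
HES1: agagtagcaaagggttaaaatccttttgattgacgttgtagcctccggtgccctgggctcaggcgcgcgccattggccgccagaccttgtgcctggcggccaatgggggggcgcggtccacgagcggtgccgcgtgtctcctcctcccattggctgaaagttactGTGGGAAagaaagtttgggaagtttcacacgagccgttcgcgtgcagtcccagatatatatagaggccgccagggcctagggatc
HES4: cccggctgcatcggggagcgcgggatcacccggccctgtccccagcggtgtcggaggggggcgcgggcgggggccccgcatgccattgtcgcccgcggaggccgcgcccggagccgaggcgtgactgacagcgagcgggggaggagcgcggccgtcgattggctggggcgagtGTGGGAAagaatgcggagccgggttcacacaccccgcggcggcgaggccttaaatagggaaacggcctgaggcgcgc
The CHAC1 window is chr15:40953221-40953470 on the plus strand, and its core begins 209 bases before the start. ASNS is at chr7:97872409-97872658 on the minus strand, with the core 68 bases before the start. GARS1 is at chr7:30594628-30594877 (plus, 33 bases) and CEBPG at chr19:33373863-33374112 (plus, 42 bases). HES1 is at chr3:194135898-194136147 (plus, 85 bases) and HES4 at chr1:1000098-1000347 (minus, 77 bases). The C/EBP-ATF core stood in 1104 of 35116 promoter windows of the same length (3.14%), and in 490 of 15384 measured genes with a window (3.19%). In the 4 lists of ATF4 regulators, amino acid enzymes, amino acid transporters and cytosolic tRNA synthetases it stood in 13 of 63 genes (20.6%). Among all genes that rose in HPB-ALL and fell in KOPT-K1 it stood in 14 of 301 (4.65%), and among genes that moved in the same direction in 6 of 234 (2.56%). The RBPJ core stood in 5.43% of the windows, in 7.03% of measured genes and in 6 of 18 NOTCH targets with a window. These matches describe letters only.

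SAHM1 called 3761 genes in KOPT-K1, or 19% of those tested, of which 1156 were higher (5.85%) and 2605 lower (13.2%). In HPB-ALL it called 1843 genes (9.32%), 979 higher (4.95%) and 864 lower (4.37%). The difference between the responses was called for 3318 genes (16.8%). It was positive for 2250 (11.4%) and negative for 1068 (5.4%). A difference of at least 1 in log2 was reached by 161 of them, 149 positive and 12 negative. The median difference over all genes was -0.03.

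Among the 703 genes called in both lines, opposite movement outnumbered movement in the same direction, 412 to 291. The counts were equal with 18S as a covariate (13 and 13) and with the spikes (73 and 73), which are described further on. Opposite directions were found for 412 genes (2.08% of those tested), which is 10.95% of the genes called in KOPT-K1 and 22.4% of those called in HPB-ALL. In 369 of them (1.87%) HPB-ALL rose and KOPT-K1 fell, and in 43 (0.217%) HPB-ALL fell and KOPT-K1 rose. The difference itself was called for all 412 in the fit, and in 410 the SAHM1 and DMSO arrays did not overlap in either line. These genes were chosen for passing in both lines with opposite signs, so neither count is separate support. The arrays also did not overlap in either line for 288 of the 291 genes that moved in the same direction. That held for 1491 of the 3318 called differences, and it was not counted over all genes. The same direction was found for 291 genes (1.47%), 40 higher in both lines (0.202%) and 251 lower in both (1.27%). A gene was taken as shared where, in addition, the 95% interval of the difference stayed within 0.5 either way. That held for 245 genes (1.24%), 28 higher and 217 lower. Over all 19775 genes the changes in the lines had a Pearson r of -0.136 and a Spearman rho of -0.121, across genes, which are not independent replicates.

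The remaining called differences were split by line. KOPT-K1 alone was called for 1729 of them (1160 lower and 569 higher), and HPB-ALL alone for 672 (419 higher and 253 lower). In 479 cases neither line passed its own test. The estimate in the line that was not called had the opposite sign in 1476 of the 1729 and in 535 of the 672. Over all 19775 genes, the estimates of the lines had opposite signs in 10955. Choosing genes by a called difference itself favours opposite signs, so these counts are not separate support for opposite movement. Only 26 of the 291 genes that moved in the same direction had a called difference, 16 with the larger change in HPB-ALL and 10 with the larger change in KOPT-K1.

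**Figure D1:**
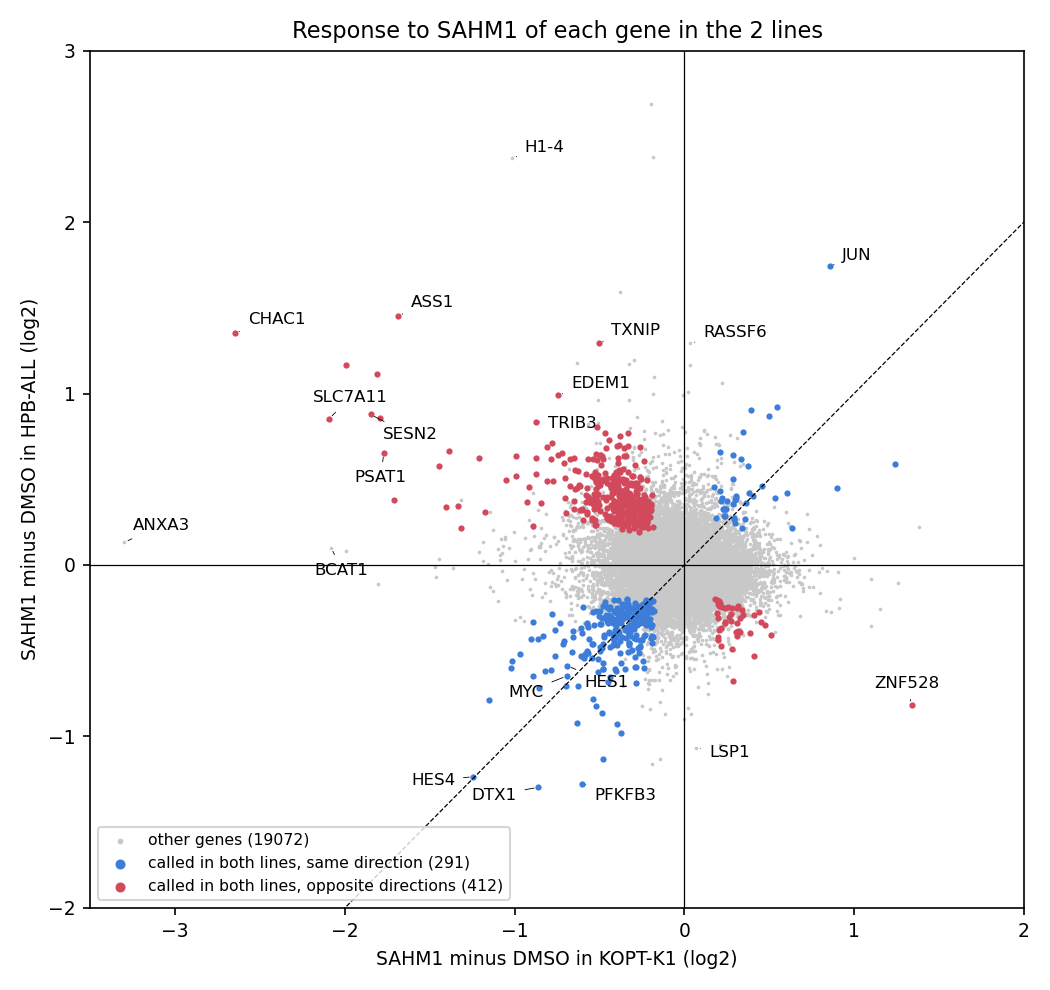
Each point is 1 of 19775 genes, with its change with SAHM1 in KOPT-K1 on the x axis and in HPB-ALL on the y axis, both in log2. The 412 genes called in opposite directions lie mostly in the upper left, with CHAC1 at -2.65 and 1.35, and the 291 called in the same direction lie mostly along the dashed line of equal change in the lower left, with HES4 at -1.24 in both.

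2 measures of the arrays moved with the contrast. Probe sets for 18S ribosomal RNA changed by -0.26 in KOPT-K1 versus 2.19 in HPB-ALL, a difference of 2.45 (exact two-sided permutation of treatment labels within lines, p = 0.01, against a smallest possible p of 0.005 from 400 relabellings). The 3 DMSO arrays of HPB-ALL stood at 1.05, -1.01 and -1.65 on this measure and its SAHM1 arrays at 1.73, 1.89 and 1.35. The 18 hybridization spike probe sets, which report added control RNA, changed by 0.83 in KOPT-K1 versus -0.39 in HPB-ALL (difference -1.22, exact permutation p = 0.025). The 5′ against 3′ signal of ACTB and of GAPDH, a mark of RNA quality, differed between the responses by -0.07 and -0.02 (exact permutation p = 0.695 and 0.63). The ACTB measure was nevertheless lower with SAHM1 in each line (KOPT-K1 -0.17, HPB-ALL -0.24). Every SAHM1 array lay below every DMSO array of its line on it. For GAPDH these changes were 0.01 (KOPT-K1) and -0.01 (HPB-ALL). The part of the ACTB shift in the genes that moved alike was not tested. With 18S as a covariate, the difference was called for 324 genes and opposite directions for 13, with the spike level for 251 and 73, and after quantile normalization for 211 and 19. The signs of all 412 opposite genes in both lines were kept in these 3 settings. Quantile normalization gives every array the same spread. Over all probe sets the standard deviation was 0.12 to 0.15 on DMSO arrays and 0.23 to 0.32 on SAHM1 arrays. The procedure thus widens DMSO scatter and narrows SAHM1 changes by construction. The difference of CHAC1, 4.0 in the main fit, was 2.45 after it. How many calls were lost for that reason was not tested. Of 102 genes named by the rules in the methods with a called difference, 49 lost that call with 18S, 52 with the spikes and 50 after quantile normalization, and 42 kept it in all 3 settings. Of the amino acid response these 42 were CHAC1, ASS1, SLC7A11, VLDLR, SESN2, PSAT1, SLC3A2, CEBPB, SLC7A5, BCAT1, EIF4EBP1, PYCR1, DDIT3, TRIB3, ASNS, SLC1A4, GARS1, CARS1 and IARS1. The others were NIBAN1, PCK2, TM6SF1, SPNS3, TXNIP, EDEM1, EGR1, DUSP6, KLF6, RAG2, PMAIP1, GSAP, ANP32A-IT1, DNAJB1, STIP1, CST7, RASSF6, FAM24B, ZEB1-AS1, SELENOW, AK4, BNIP3 and HMMR. The part of 18S and of the spikes in the results was not tested.

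**Figure D2:**
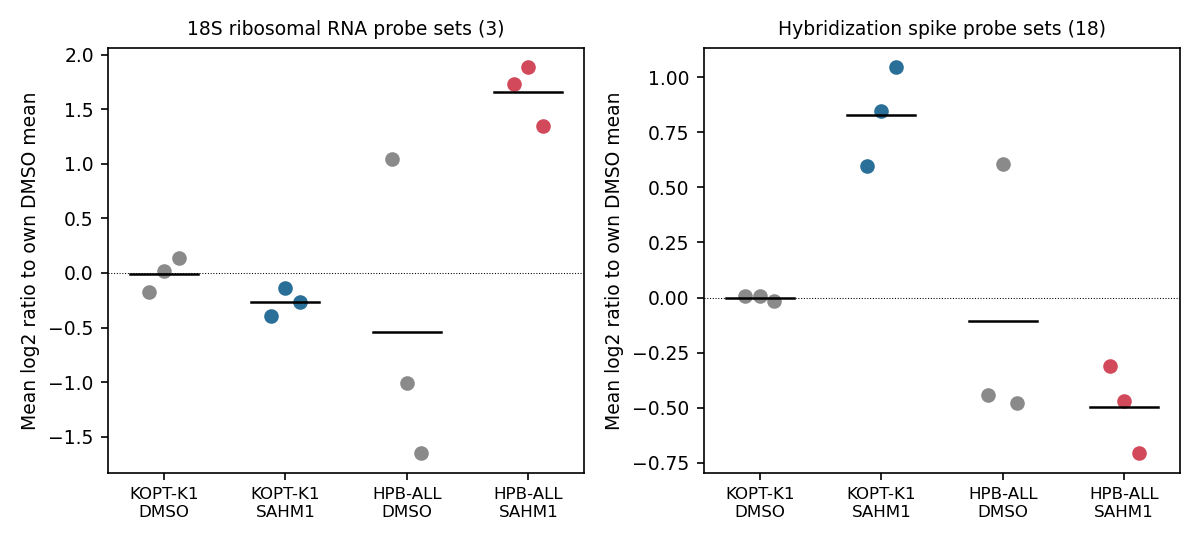
Mean log2 ratio of the 3 probe sets for 18S ribosomal RNA (left) and of the 18 hybridization spike probe sets (right) on each array, against the mean of the line's own DMSO arrays; points are arrays and bars are means of 3. The HPB-ALL DMSO arrays spread from -1.65 to 1.05 in 18S while its SAHM1 arrays lie between 1.35 and 1.89, and the KOPT-K1 SAHM1 arrays lie above their DMSO arrays in the spikes.

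Of the 14 genes with the largest opposite movement in which HPB-ALL was the higher, 9 were on the lists of the amino acid response. The 4 lists that describe it (ATF4 regulators, amino acid enzymes, transporters and cytosolic tRNA synthetases) held 77 measured genes. In KOPT-K1 53 of them fell and 0 rose (also 0 at an unadjusted p under 0.05, limma), and in HPB-ALL 24 rose and 8 fell. Opposite directions were called for 23 and the same direction for 4, against 2.08% and 1.47% of all genes. Over all genes, 13.2% were called lower in KOPT-K1, and 4.95% higher and 4.37% lower in HPB-ALL. The single lists below are read against the same shares. In the 77 genes the difference was positive for 45 and negative for 1, which is 59.7% called against 16.8% of all genes. Their median change was -0.65 in KOPT-K1 and 0.10 in HPB-ALL, and their median difference was 0.89 against -0.03 over all genes. Once 18S entered as a covariate, 40 of the 77 kept a called difference, all positive, with a median of 0.71, and 7 were called in opposite directions. The number called in opposite directions was 13 after quantile normalization and 14 of 58 measured without probe sets whose names end in _x_at or _s_at, which can bind related transcripts. Such probe sets were the only ones for ASS1, VLDLR, SESN2, PSAT1, SLC3A2, SLC7A5, PYCR1, GARS1, IARS1 and DDIT4. Outside these lists the same held for NIBAN1, TXNIP, HES4 and MYC, among others.

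CHAC1, an enzyme that breaks down glutathione, had the largest difference of all genes that moved in opposite directions. Its log2 ratios were 0.17, 0.03 and -0.24 in DMSO and -2.73, -2.36 and -2.88 in SAHM1 in KOPT-K1. In HPB-ALL they were 0.05, -0.09 and 0.04 in DMSO and 1.45, 1.33 and 1.27 in SAHM1. The groups lay far apart in both lines, a 6.26-fold fall against a 2.56-fold rise, with a difference of 4.0 ± 0.18 (adjusted p = 6.27e-08). CHAC1 remained called in opposite directions with the 18S level, with the spike level and after quantile normalization.

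ATF4 itself was called in opposite directions with a smaller difference than DDIT3, TRIB3 and CEBPB. Its ratios in KOPT-K1 were 0.06, -0.01 and -0.05 in DMSO and -0.33, -0.38 and -0.38 in SAHM1, and in HPB-ALL -0.07, 0.07 and -0.00 against 0.22, 0.20 and 0.25. The difference was 0.59 ± 0.08 (adjusted p = 8.09e-04). DDIT3, a C/EBP-type factor linked to stress-induced death, fell by 0.99 in KOPT-K1 (-0.97, -0.91 and -1.1 in SAHM1, against 0.02, -0.06 and 0.04) and rose by 0.64 in HPB-ALL (0.72, 0.61 and 0.57, against -0.04, 0.07 and -0.03). TRIB3, a pseudokinase that feeds back on ATF4, was at -0.81, -0.98 and -0.85 in KOPT-K1 with SAHM1 and at 0.73, 0.85 and 0.92 in HPB-ALL, with a difference of 1.71 ± 0.12. CEBPB, a C/EBP partner, stood at -1.41, -1.52 and -1.39 in KOPT-K1 with SAHM1 and at 0.60, 0.58 and 0.54 in HPB-ALL, with a difference of 2.02 ± 0.08. None of these groups overlapped with DMSO in either line, which the rule that named CEBPB required.

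SESN2, a leucine sensor that restrains mTORC1, had ratios of -1.82, -1.68 and -2.09 with SAHM1 in KOPT-K1 and of 0.98, 0.80 and 0.83 in HPB-ALL (difference 2.73 ± 0.15). VLDLR, a lipoprotein receptor induced by ATF4, had ratios of -1.62, -2.02 and -1.83 and of 1.13, 0.96 and 1.22 (difference 2.92 ± 0.19). NIBAN1, a stress-induced regulator of translation that is on none of the 4 lists, had changes of -1.21 ± 0.10 and 0.62 ± 0.10. The list of ATF4 stress regulators as a whole had 15 of 21 lower and 0 higher in KOPT-K1 (0 at an unadjusted p under 0.05), and 10 higher and 1 lower in HPB-ALL. The exception in HPB-ALL was DDIT4, an mTORC1 inhibitor, which fell in both lines. Its SAHM1 ratios were -1.19, -1.26 and -1.0 in KOPT-K1 and -0.80, -0.90 and -0.67 in HPB-ALL, with an uncalled difference of 0.36 ± 0.12 (95% interval 0.10 to 0.63, adjusted p = 0.0616). VEGFA, the endothelial growth factor, fell in KOPT-K1 (-1.1 ± 0.09) and had a value of -0.21 ± 0.09 in HPB-ALL, which did not pass.

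Amino acid transporters fell in 12 of 17 cases in KOPT-K1 with 0 higher, and rose in 4 with 0 lower in HPB-ALL (1 lower at an unadjusted p under 0.05). The median difference of the list was 0.97. SLC7A11, the cystine importer, had SAHM1 ratios of -2.08, -1.93 and -2.28 in KOPT-K1 and 0.89, 0.80 and 0.84 in HPB-ALL, against DMSO ratios between -0.11 and 0.08. Its difference was 2.95 ± 0.12, and its 3 probe sets ran from 1.39 to 4.11. SLC3A2, the chain that carries SLC7A11 and SLC7A5 to the membrane, was at -1.5, -1.68 and -1.95 in KOPT-K1 versus 0.39, 0.31 and 0.43 in HPB-ALL. SLC7A5, the leucine importer, was at -1.36, -1.36 and -1.5 versus at 0.41, 0.25 and 0.34. SLC1A4, a neutral amino acid carrier, changed by -0.92 ± 0.06 and by 0.45 ± 0.06.

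Enzymes of amino acid synthesis fell in 13 of 22 cases in KOPT-K1, with 0 higher also at an unadjusted p under 0.05, and in HPB-ALL 5 rose and 3 fell. ASS1, which makes argininosuccinate for arginine synthesis, had SAHM1 ratios of -1.98, -1.52 and -1.56 in KOPT-K1 and 1.45, 1.46 and 1.42 in HPB-ALL. Its DMSO ratios ran from -0.17 to 0.26, and its changes were 3.22-fold down and 2.74-fold up. PSAT1, a transaminase of serine synthesis, was at -1.78, -1.73 and -1.80 in KOPT-K1 versus 0.57, 0.58 and 0.80 in HPB-ALL (difference 2.42 ± 0.10). MTHFD2 of mitochondrial folate metabolism, chosen after its values were seen, changed by -1.05 and 0.49.

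ASNS, the asparagine synthetase, was also called in opposite directions, but its 2 probe sets disagreed. The gene mean changed by -1.33 ± 0.07 in KOPT-K1 versus 0.34 ± 0.07 in HPB-ALL, with a difference of 1.68 ± 0.10. 1 probe set carried this with a difference of 3.65, and the other stood at -0.30. Only the latter remained where probe sets ending in _x_at or _s_at were left out, and the gene's difference was then -0.298 and not called.

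Part of the same lists fell in KOPT-K1 with little change in HPB-ALL. BCAT1, the cytosolic branched-chain transaminase, had SAHM1 ratios of -1.99, -2.16 and -2.10 in KOPT-K1 and of 0.12, 0.05 and 0.13 in HPB-ALL, where the change was 0.10 ± 0.06. EIF4EBP1, which holds back cap-dependent translation, was at -1.42, -1.52 and -1.40 in KOPT-K1 versus 0.07, -0.06 and 0.10 in HPB-ALL. PYCR1, the last enzyme of mitochondrial proline synthesis, was at -1.73, -1.30 and -1.37 against 0.06, -0.03 and -0.08. The difference was called for all 3, at 2.18 ± 0.09, 1.48 ± 0.09 and 1.46 ± 0.14.

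Cytosolic tRNA synthetases, which load tRNAs with amino acids, were lower in 13 of 17 cases in KOPT-K1 with 0 higher, and 5 rose while 4 fell in HPB-ALL. CARS1, the cysteine enzyme, changed by -0.99 ± 0.06 and 0.52 ± 0.06, and GARS1, the glycine enzyme, by -1.32 ± 0.06 and 0.22 ± 0.06. IARS1, the isoleucine enzyme, fell in KOPT-K1 (-1.21 ± 0.06) and was at 0.07 ± 0.06 in HPB-ALL. VARS1, the valine enzyme, chosen after its values were seen, fell in both lines (-0.49 and -0.86). Of the mitochondrial synthetases, which serve the separate protein synthesis of mitochondria, 6 of 15 fell in KOPT-K1 and 2 fell in HPB-ALL, 0 rose in either line also at an unadjusted p under 0.05, and the median difference was 0.02. The difference was called for 1 of 15, WARS2 (0.32 ± 0.09), against 11 of 17 cytosolic enzymes. WARS2 was not called in 8 of the 12 fits that left out 1 array (KOPT-K1 DMSO 1 or 2, KOPT-K1 SAHM1 2 or 3, HPB-ALL DMSO 2 or 3, HPB-ALL SAHM1 2 or 3), with limma's adjusted p from 0.0321 to 0.0947 and 0.0614 with the replicate block.

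Opposite movement was also found outside these lists. TXNIP, the thioredoxin-binding arrestin that limits glucose uptake, had SAHM1 ratios of -0.45, -0.57 and -0.50 in KOPT-K1 and 1.26, 1.24 and 1.34 in HPB-ALL, and a difference of 1.80 ± 0.10. Its DMSO ratios ran from -0.11 to 0.13, apart from all SAHM1 arrays, which the rule for the largest opposite genes required. The relatives ARRDC3 and ARRDC4 were each called in 1 line only. ARRDC3 fell in KOPT-K1 (-1.06 ± 0.19, against 0.16 ± 0.19 in HPB-ALL) and ARRDC4 rose in HPB-ALL (0.99 ± 0.17, against -0.01 ± 0.17).

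PCK2, the mitochondrial enzyme that makes phosphoenolpyruvate, had SAHM1 ratios of -1.82, -1.79 and -1.78 in KOPT-K1 and of 0.84, 0.88 and 0.82 in HPB-ALL (difference 2.65 ± 0.12). TM6SF1, a lysosomal membrane protein, was at -2.06, -2.15 and -1.78 and at 1.09, 1.11 and 1.25 (difference 3.16 ± 0.17). SPNS3, of a family of lipid transporters, changed by -1.38 ± 0.14 and 0.67 ± 0.14. EDEM1, which directs misfolded glycoproteins out of the endoplasmic reticulum, was at -0.66, -0.76 and -0.81 in KOPT-K1 versus 1.02, 1.0 and 0.96 in HPB-ALL. Its difference was 1.74 ± 0.09.

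EDEM1 was 1 of 2 members of the unfolded protein response of the endoplasmic reticulum called in opposite directions. In KOPT-K1 4 of 18 fell, and in HPB-ALL 2 rose and 4 fell, and the median difference was -0.03, equal to that of all genes at this rounding. DNAJC3, a co-chaperone, was the other (-0.74 ± 0.16 and 0.64 ± 0.16), but with the 18S level its difference of 1.39 became 0.67 and was not called. SDF2L1, a chaperone partner in the endoplasmic reticulum, fell in HPB-ALL (-0.64 ± 0.09, against 0.13 ± 0.09). In this list the difference was called for 6 of 18, 3 positive and 3 negative (33.3%, against 16.8% of all genes).

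Opposite directions, with HPB-ALL the higher, were called for 3 of 23 AP-1 and immediate early genes, 1 of 19 p53 and apoptosis genes and 1 of 32 T-lineage genes, against 1.87% of all genes. EGR1, an immediate early factor, changed by -0.26 ± 0.07 in KOPT-K1 versus 0.69 ± 0.07 in HPB-ALL, though its 3 probe sets differed from 0.04 to 1.46. DUSP6, a phosphatase that acts on ERK, changed by -0.57 ± 0.06 and 0.30 ± 0.06, and KLF6, a zinc finger factor, by -0.37 ± 0.06 and 0.26 ± 0.06. PMAIP1, the death-promoting BCL2 relative NOXA, had SAHM1 ratios of -0.64, -0.66 and -0.58 in KOPT-K1 and 0.59, 0.53 and 0.51 in HPB-ALL. RAG2, a subunit of the recombinase that joins T-cell receptor genes, was at -0.89, -0.66 and -0.91 and at 0.59, 0.59 and 0.86 (difference 1.5 ± 0.16). Its partner RAG1 fell in KOPT-K1 (-0.67 ± 0.10) and was at 0.23 ± 0.10 in HPB-ALL, not called, with 1 of 2 probe sets carrying the difference.

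**Figure D3:**
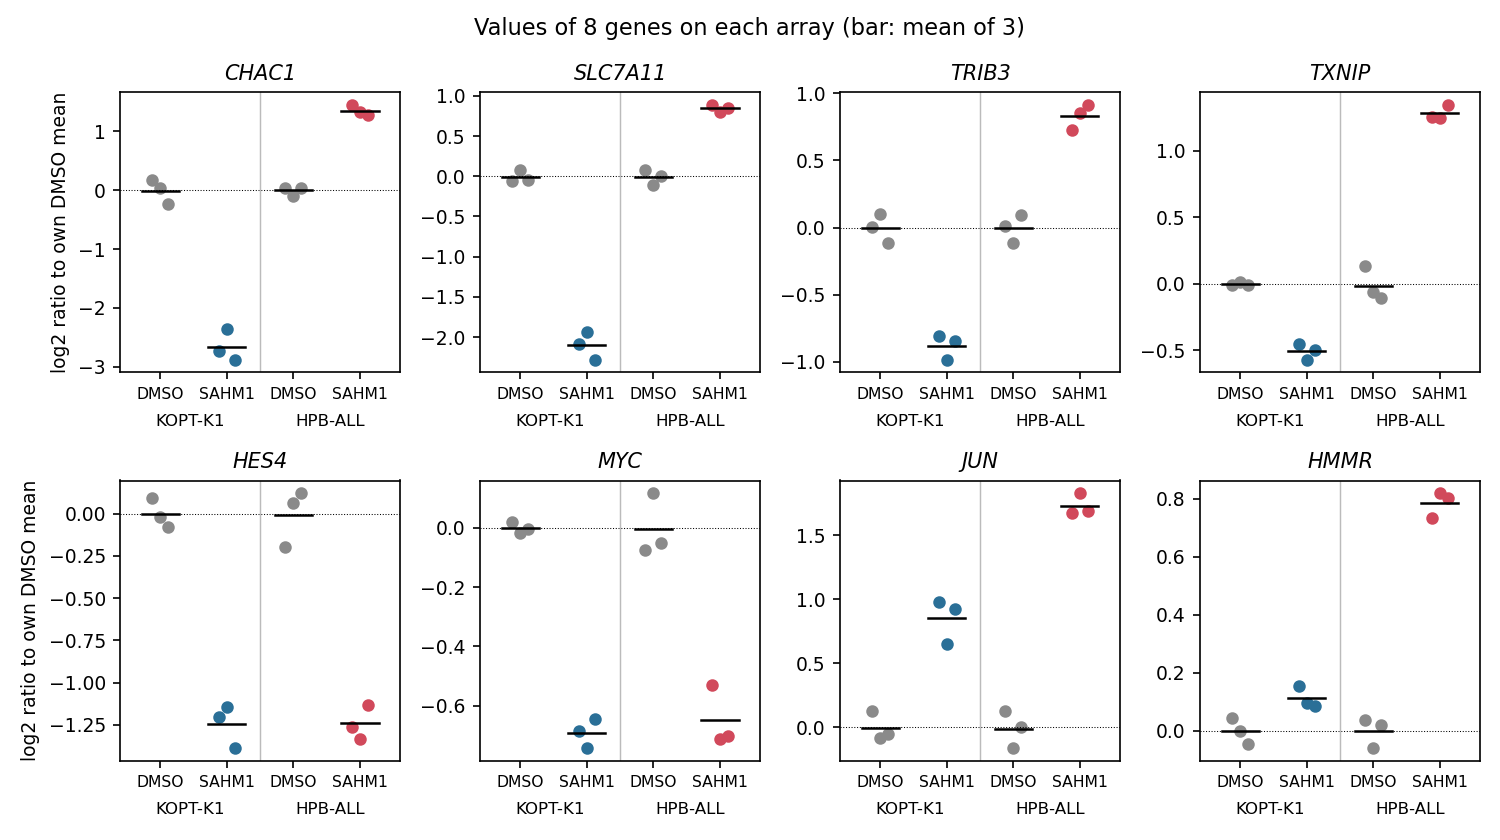
Log2 ratio to the line's own DMSO mean for 8 genes on each of 12 arrays, with points for arrays and bars for means of 3; the vertical scale differs between panels. CHAC1, SLC7A11, TRIB3 and TXNIP lie below DMSO in KOPT-K1 and above it in HPB-ALL, HES4 and MYC lie below DMSO in both lines, JUN lies above it in both, and HMMR is clearly raised only on the HPB-ALL SAHM1 arrays.

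The reverse pattern, higher in KOPT-K1 and lower in HPB-ALL, was rarer and smaller. Its 43 genes had median changes of 0.28 and -0.31, against -0.38 and 0.37 for the 369 genes of the main pattern. ZNF528, a zinc finger gene, had the largest difference (-2.16 ± 0.30), with SAHM1 ratios of 1.36, 1.24 and 1.41 in KOPT-K1 and of -1.04, -0.47 and -1.14 in HPB-ALL. Its HPB-ALL DMSO arrays spread from -0.40 to 0.52, and it rested on 1 probe set ending in _x_at or _s_at. GSAP, a regulator of gamma-secretase, changed by 0.29 ± 0.08 and -0.68 ± 0.08, and HLA-B, which presents peptides to T cells and has close relatives, by 0.39 ± 0.07 and -0.40 ± 0.07. STAC (difference -0.92 ± 0.14), MRGPRX2 (-0.83 ± 0.13), FBXL19 (-0.77 ± 0.11) and the transcript ANP32A-IT1 (-0.94 ± 0.12) followed.

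Some cytosolic heat shock proteins moved in this reverse way. In KOPT-K1 3 of 13 rose and 1 fell, and in HPB-ALL 6 fell and 0 rose (0 at an unadjusted p under 0.05). The difference was called for 6 of 13, all negative (46.2%, against 16.8% called over all genes), and 3 were called in opposite directions, against 0.217% of all genes. DNAJB1, the co-chaperone of HSP70, had SAHM1 ratios of 0.47, 0.44 and 0.43 in KOPT-K1 and of -0.37, -0.42 and -0.21 in HPB-ALL. STIP1, which links HSP70 and HSP90, was at 0.23, 0.16 and 0.19 and at -0.47, -0.48 and -0.37. HSPE1, the mitochondrial co-chaperonin, fell in HPB-ALL (-0.42 ± 0.06) and was at 0.14 ± 0.06 in KOPT-K1. The median difference of the list was -0.28, and -0.21 with the 18S level.

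The 245 shared genes included 6 of the 21 NOTCH targets measured, against 1.24% of all genes. HES4, a hairy/E(spl)-type repressor, had SAHM1 ratios of -1.20, -1.14 and -1.39 in KOPT-K1 and of -1.26, -1.33 and -1.13 in HPB-ALL, against DMSO ratios between -0.20 and 0.12. Its difference was 0.01 ± 0.14, with a 95% interval from -0.28 to 0.30. HES1 was at -0.68, -0.74 and -0.66 in KOPT-K1 versus -0.60, -0.59 and -0.59 in HPB-ALL, with an interval of the difference from -0.06 to 0.26. MYC, the growth-driving factor, was at -0.69, -0.74 and -0.65 and at -0.53, -0.71 and -0.70, with an interval from -0.17 to 0.26. CD300A, an inhibitory receptor, changed by -0.85 ± 0.07 and -0.72 ± 0.07 (interval -0.07 to 0.35).

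Of the 21 NOTCH targets measured, 13 fell and 1 rose in KOPT-K1, and 9 fell and 1 rose in HPB-ALL. The same direction was called for 8, all lower, and 6 of these were shared. Over all genes, 13.2% were called lower in KOPT-K1, 4.37% in HPB-ALL and 1.27% in both. Among the targets, the difference was called for 7 (33.3%, against 16.8% of all genes). With the 18S level ARPP21 and LZTFL1 were called, with the spike level ARPP21 alone, and after quantile normalization DTX1 alone. DTX1, a ubiquitin ligase of the NOTCH pathway, fell in both lines and fell further in HPB-ALL. Its SAHM1 ratios were -1.02, -0.66 and -0.91 in KOPT-K1 and -1.19, -1.33 and -1.37 in HPB-ALL, with a difference of -0.44 ± 0.13 (adjusted p = 0.0413). This difference was not called in 8 of the 12 fits that left out 1 array (any DMSO or SAHM1 array numbered 2 or 3), with differences from -0.51 to -0.34 and limma's adjusted p from 0.0214 to 0.096.

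4 NOTCH targets, in contrast, were higher in HPB-ALL relative to KOPT-K1 in the main fit. IL7R, the interleukin-7 receptor, had SAHM1 ratios of -1.43, -0.96 and -0.88 in KOPT-K1 and of -0.10, 0.17 and 0.09 in HPB-ALL (difference 1.14 ± 0.18). Its call was lost with 18S, with the spikes and after quantile normalization. LZTFL1, a ciliary trafficking protein, was at -0.95, -0.96 and -0.96 and at 0.02, -0.01 and -0.12, though only 2 of its 4 probe sets were called in the difference. ARPP21, an RNA-binding phosphoprotein, was the member called in opposite directions (-0.28 ± 0.07 and 0.48 ± 0.07), and the differences of its 6 probe sets ran from 0.17 to 1.40. IGF1R, the growth factor receptor, was the fourth, at -0.62 and -0.05, and was chosen after its values were seen. HEY1, a repressor related to HES1, rose in KOPT-K1 (0.36 ± 0.10) and had a value of -0.28 ± 0.10 in HPB-ALL that did not pass. Its difference of -0.64 ± 0.14 was called (limma's adjusted p = 0.0105), but not with 18S, with the spikes or after quantile normalization. For NRARP (95% interval -0.22 to 0.45), NOTCH1 (-0.71 to 0.27), NOTCH3 (-0.39 to 0.11) and PTCRA (-0.46 to 0.06), no difference was called.

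Glycolysis, hypoxia and ribosome assembly genes were each called lower in both lines for some members. Their counts are read against all genes, of which 13.2% were called lower in KOPT-K1, 4.37% in HPB-ALL and 1.27% in both. Glycolysis genes fell in 8 of 21 cases in KOPT-K1 and in 18 of 21 in HPB-ALL with 0 higher in either (0 at an unadjusted p under 0.05). For 7 the fall was called in both lines and 6 of these were shared. HK2, the first kinase of glycolysis in growing cells, had SAHM1 ratios of -0.79, -0.95 and -0.94 in KOPT-K1 and of -0.76, -0.60 and -0.63 in HPB-ALL (interval of the difference -0.00 to 0.49). 7 enzymes were lower in HPB-ALL relative to KOPT-K1 (33.3% called, against 16.8% of all genes). ALDOC, an aldolase, was at 0.01, -0.01 and -0.57 in KOPT-K1 versus -1.13, -1.23 and -1.12 in HPB-ALL (difference -0.97 ± 0.17). PGK1 changed by -0.05 ± 0.06 and -0.59 ± 0.06, and LDHA, which makes lactate, by -0.10 ± 0.05 and -0.46 ± 0.05. The list's median difference was -0.22, or -0.17 with 1 member called when the 18S level was a covariate.

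Hypoxia genes outside glycolysis fell in 10 of 20 cases in each line, 6 of them called in both. The difference was positive for 5 and negative for 5 (50% called, against 16.8% of all genes). BNIP3, a mitophagy receptor, fell in both and further in HPB-ALL (-0.38 ± 0.07 and -0.98 ± 0.07). AK4, a mitochondrial adenylate kinase, fell in HPB-ALL (-1.13 ± 0.08, against -0.14 ± 0.08), but 1 of its 4 probe sets was called in the difference.

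Ribosome biogenesis genes fell in 12 of 23 cases in KOPT-K1 and 15 in HPB-ALL, with 0 higher also at an unadjusted p under 0.05, and 9 fell in both, of which 8 were shared. The list's median changes of -0.26 and -0.28 were nearly equal. SRM, the spermidine synthase of polyamine production, fell in both lines (-0.40, -0.35 and -0.44 with SAHM1 in KOPT-K1 and -0.83, -1.03 and -0.94 in HPB-ALL), with a difference of -0.53 ± 0.13. PUS7, a pseudouridine synthase, was shared at -0.70 ± 0.09 and -0.71 ± 0.09. Of the cytosolic ribosomal proteins, 1 of 18 rose in KOPT-K1, and in HPB-ALL and in the difference 0 were called (0 in HPB-ALL and 3 lower in the difference at an unadjusted p under 0.05). ID1, an inhibitor of DNA binding (-0.63 ± 0.13 and -0.71 ± 0.13), and SUSD4, a complement regulator (-0.59 ± 0.09 and -0.54 ± 0.09), were the other named falls of the shared group. The 3 probe sets of SUSD4 disagreed, with differences from -0.49 to 0.59.

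Fewer genes rose in both lines. JUN, a subunit of AP-1, had SAHM1 ratios of 0.98, 0.65 and 0.93 in KOPT-K1 and of 1.67, 1.83 and 1.69 in HPB-ALL. It fell outside the shared group because its difference was 0.89 ± 0.14 (adjusted p = 0.00157), and 2 of its 4 probe sets were called in that difference, with a range from 0.05 to 1.73. TNFAIP3, the ubiquitin-editing inhibitor of NF-kB known as A20, was shared, at 0.48, 0.34 and 0.53 in KOPT-K1 and 0.53, 0.40 and 0.45 in HPB-ALL. Its interval of the difference ran from -0.22 to 0.24. NFKBIA, another NF-kB inhibitor, rose in KOPT-K1 (0.45 ± 0.08) and was at -0.20 ± 0.08 in HPB-ALL, with a called difference of -0.64 ± 0.12. IFI27L1 (0.40 ± 0.07 and 0.41 ± 0.07), SCGB3A1 (0.54 ± 0.09 and 0.39 ± 0.09), the transcripts NCK1-DT and LINC02405, and the DNA polymerase POLQ (0.31 ± 0.09 and 0.40 ± 0.09) were also shared rises. The 2 probe sets of POLQ disagreed in KOPT-K1, at -0.08 and 0.69.

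Genes of mitosis rose in HPB-ALL and mostly not in KOPT-K1. Of 32 measured, 24 rose and 0 fell in HPB-ALL (0 at an unadjusted p under 0.05), and 4 rose and 0 fell in KOPT-K1 (0 at an unadjusted p under 0.05 as well). Over all genes, 4.95% were called higher in HPB-ALL and 5.85% in KOPT-K1. The 4 mitotic genes that rose in KOPT-K1 were called in both lines and met the shared rule. Among them CCNB1, the mitotic cyclin, had SAHM1 ratios of 0.30, 0.28 and 0.34 in KOPT-K1 and of 0.32, 0.43 and 0.41 in HPB-ALL. CENPA, the centromeric histone, met the rule with a called difference of 0.28 ± 0.09 (0.33 ± 0.06 and 0.62 ± 0.06), which was called in only 2 of the 12 fits that left out 1 array, those without KOPT-K1 DMSO 1 or HPB-ALL DMSO 2. Its limma adjusted p in these 12 fits ran from 0.0268 to 0.0927, and was 0.055 with the replicate block. The difference was positive and called for 15 of 32 (46.9%, against 16.8% called over all genes). HMMR, a spindle protein, was at 0.16, 0.10 and 0.08 in KOPT-K1 versus 0.73, 0.82 and 0.80 in HPB-ALL (difference 0.67 ± 0.08). CENPE, a kinetochore motor, was at 0.05, -0.21 and -0.14 and at 0.72, 0.72 and 0.63. The list's median difference of 0.29 was 0.30 with the 18S level, where 3 members were called, HMMR and CENPE among them. After quantile normalization 2 were called, and 1 with the spike level.

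Histone genes of the replication-dependent and linker kinds gave large values with wide spread. In HPB-ALL 7 of 12 rose and 0 fell, and in KOPT-K1 2 rose and 0 fell (1 at an unadjusted p under 0.05). Over all genes, 4.95% were called higher in HPB-ALL and 5.85% in KOPT-K1. H1-4, a linker histone, had HPB-ALL DMSO ratios of 1.1, -1.39 and -1.08 and SAHM1 ratios of 1.90, 2.28 and 1.58, and in KOPT-K1 SAHM1 ratios of -1.38, -0.75 and -0.94. Within the HPB-ALL DMSO group replicate 1 was high and replicates 2 and 3 were low, as they were for 18S, though the lowest array was replicate 2 here and replicate 3 for 18S. Its difference of 3.39 ± 0.67 became 1.11 ± 0.39 with the 18S level and was not called. The nuclear RNA MALAT1 also had replicate 1 above the others (HPB-ALL DMSO 0.63, -0.53 and -0.47), and its difference of 1.81 ± 0.34 became 0.72 ± 0.23 and was not called.

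G1/S and DNA replication genes fell in 12 of 29 cases in KOPT-K1 and 6 in HPB-ALL, with a median difference of 0.13 and 5 called differences, all positive. That is 17.2% of the list, close to the 16.8% of all genes, and the calls were lost with 18S, with the spikes and after quantile normalization. RRM2, a subunit of ribonucleotide reductase, changed by -0.20 ± 0.05 and 0.09 ± 0.05, and MCM10, a replication initiation factor, by -0.33 ± 0.05 and -0.05 ± 0.05. The difference of MCM10 was not called without HPB-ALL SAHM1 1 or 2, with limma's adjusted p up to 0.0549. T-lineage genes fell in 13 of 32 cases in KOPT-K1 and 4 in HPB-ALL, and the difference was called positive for 10 and negative for 1 (34.4%). Over all genes, 13.2% were called lower in KOPT-K1 and 4.37% in HPB-ALL, and 16.8% in the difference. CD1A, a lipid-presenting molecule of cortical thymocytes, had SAHM1 ratios of -0.48, -0.58 and -0.55 in KOPT-K1 and of -0.01, 0.07 and 0.10 in HPB-ALL.

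A minority of the cholesterol synthesis genes rose in KOPT-K1. There 7 of 17 rose and 0 fell (0 at an unadjusted p under 0.05), in HPB-ALL 1 rose, and the difference was negative for 7 (41.2% called, against 16.8% of all genes). HMGCS1, which makes the precursor of mevalonate, was at 0.66, 0.58 and 0.67 in KOPT-K1 versus 0.18, 0.18 and 0.28 in HPB-ALL. FDPS, the farnesyl diphosphate synthase, changed by 0.41 ± 0.06 and -0.11 ± 0.06, and MSMO1, a sterol oxidase, by 0.56 ± 0.06 and 0.05 ± 0.06. With the 18S level the median difference of -0.24 was -0.29, but 0 members of the list were called. The number was also 0 with the spike level and after quantile normalization.

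Some genes outside the lists responded in 1 line while the 95% interval of the change in the other stayed within 0.3. In KOPT-K1 SH3GL3, an endophilin (1.0 ± 0.12), and RRAS, a small GTPase (0.90 ± 0.12), rose, as did LINC01697 and NEK2-DT, and CST7, a cysteine protease inhibitor, fell (-1.47 ± 0.10). In HPB-ALL RASSF6, a scaffold with a Ras association domain, rose, with SAHM1 ratios of 1.22, 1.28 and 1.34 against -0.07, -0.01 and 0.14 in KOPT-K1. FAM24B (0.76 ± 0.07), ZEB1-AS1 (0.70 ± 0.07) and LRRC2 (0.80 ± 0.10) rose as well. LSP1, an actin-binding protein of leukocytes, fell in HPB-ALL (-0.83, -1.27 and -1.12) and not in KOPT-K1 (0.18, -0.01 and 0.04). NKG7, a cytotoxic granule protein (-0.84 ± 0.12), POFUT4, a fucosyltransferase (-0.90 ± 0.10), and SELENOW, a selenoprotein (-0.87 ± 0.06), fell in HPB-ALL too. ANXA3, an annexin chosen after its values were seen, fell by 3.30 ± 0.17 in KOPT-K1 and was at 0.13 ± 0.17 in HPB-ALL, a wider interval than the rule allows (difference 3.43 ± 0.24).

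**Figure D4:**
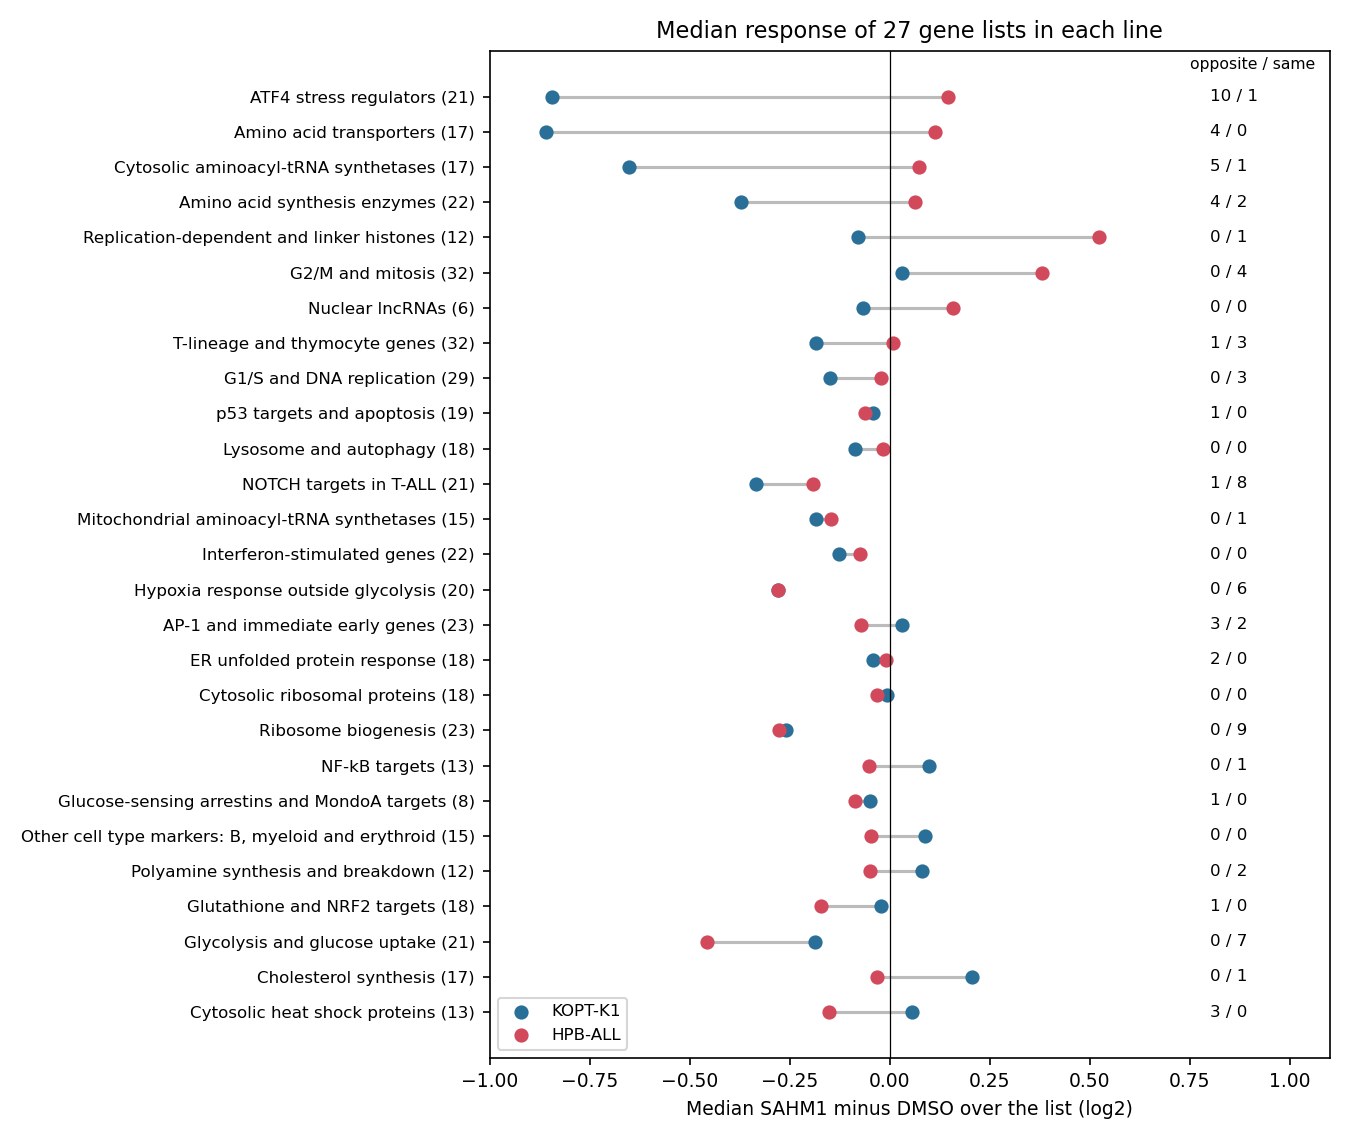
Median change with SAHM1 over the measured members of 27 gene lists (number in parentheses) in KOPT-K1 and HPB-ALL, in log2, ordered by the median difference, with the number of members called in opposite and in the same direction at the right. The amino acid response lists are at the top with medians from -0.86 to -0.37 in KOPT-K1, against 0.06 to 0.15 in HPB-ALL, and the ribosome biogenesis list has nearly equal medians of -0.26 and -0.28.

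The remaining lists held few genes of either kind. Over all 27 lists, 35 of the 498 measured genes were called in opposite directions and 51 in the same direction. Their shares of called differences are read against the 16.8% of all genes. Glutathione and NRF2 targets had 3 called differences of 18 (16.7%), with SLC7A11 and the glutathione synthesis subunit GCLM (-0.39 ± 0.07 and 0.05 ± 0.07) positive and TKT, a pentose phosphate enzyme (-0.04 ± 0.07 and -0.53 ± 0.07), negative. Interferon-stimulated genes had 3 positive and 3 negative of 22 (27.3%), among them ISG15, a ubiquitin-like protein (0.03 ± 0.07 and -0.62 ± 0.07). AP-1 and immediate early genes had 5 of 23 (21.7%), p53 targets and apoptosis genes 5 of 19 (26.3%), NF-kB targets 1 of 13 (7.69%) and polyamine genes 4 of 12 (33.3%). Lysosome and autophagy genes had 1 of 18 (5.56%), WIPI1, which helps form autophagosomes (-1.06 ± 0.12 and 0.15 ± 0.12), and nuclear lncRNAs had 2 of 6 (33.3%). The list of glucose-sensing arrestins and MondoA targets had 3 of 8 (37.5%), all positive, though its median difference was -0.14. Of these calls 1 was left with 18S, with the spikes and after quantile normalization.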

How the data were processed

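Per the labels, each culture gave 1 Affymetrix array of human transcripts, and the submitters' processing notes name RMA (version and annotation: not given in the sources used here). For each line the authors deposited linear ratios: in 54675 of 54675 probe sets the mean of its DMSO arrays was 1 within 1e-06. Ratios ran from 0.0827 to 6.98. Their log2 was taken, without a pseudocount, and averaged over the probe sets of a symbol (9252 genes had 1 probe set, others up to 20). Of 41097 such probe sets 41043 were matched by gene identifier to RefSeq, without a change of symbol. Left out were 1801 probe sets with several symbols and 11777 not listed. The values carry no level, so the planned filter on dim probe sets could not be made. The number of arrays limits the precision.

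limma 3.58.1 in R 4.3.3 (lmFit, eBayes, two-sided) was fitted with 1 term per group over the 12 arrays, leaving 8 residual degrees of freedom (12.6 after moderation), and tested on simulated data. Genes were called at a Benjamini-Hochberg adjusted p under 0.05. Named genes were the 14 largest opposite differences with HPB-ALL higher and 8 with it lower, 8 rises and 8 falls among shared genes, 4 rises and 4 falls per line among genes called in 1 line, 20 fixed genes, and up to 3 members per list with the smallest p for the difference. The opposite and shared genes were picked only among those whose SAHM1 and DMSO arrays did not overlap in either line. For them the lack of overlap is therefore no separate result. Genes, the 27 lists (560 entries, 502 measured) and tests were chosen with earlier results of these data known. The alternatives tried are named in the closing section.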

Additional observations from a re-analysis of the deposited data

Results flagged for a closer look

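The difference between the responses of the lines was itself tested, and it was called for 3318 of 19775 genes, of which 412 were called in both lines in opposite directions. The 18S probe sets also responded differently, by 2.45 in log2 (exact permutation p = 0.01), and the hybridization spikes by -1.22 (exact permutation p = 0.025). These 2 array measures were among 4 tested, and their part in the gene results was not tested.

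Probe sets without exactly 1 gene symbol were not used for genes. In a fit over all probe sets, 1103 of these 13522 had a called difference (8.16%), against 5288 of 41091 probe sets with 1 symbol, controls left out (12.9%).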

How the results depend on the processing

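The counts are given as called differences, opposite and same direction, and were 3318, 412 and 291. They were 211, 19 and 16 after quantile normalization, 324, 13 and 13 with the 18S level and 251, 73 and 73 with the spike level as covariate. Without probe sets ending in _x_at or _s_at, opposite and same fell to 205 and 119, and with each line fitted alone to 241 and 169. Single probe sets gave 5675 called differences, counted over 41097 probe sets and not over genes. An adjusted p under 0.01 left 1392, 100 and 88, and a change of at least 0.5 left 1525, 42 and 32. The stricter thresholds remove genes by construction, and leaving out probe sets does so only for genes no longer measured. Quantile normalization gives DMSO and SAHM1 arrays the same spread and so narrows the changes by construction. Without _x_at and _s_at probe sets, 347 of the 412 opposite genes were still measured and 187 kept the call. Of the 291 genes that moved in the same direction, 220 were measured and 106 kept it. Why the counts moved otherwise was not tested. Leaving out 1 array gave 2341 to 3369, 201 to 557 and 150 to 272. The opposite count was 253 without KOPT-K1 DMSO replicate 2, 204 and 223 without HPB-ALL DMSO replicates 2 and 3, and 233, 201 and 229 without HPB-ALL SAHM1 replicates 1, 2 and 3. The same count was 184 and 158 without HPB-ALL DMSO replicates 2 and 3, and 167, 150 and 179 without HPB-ALL SAHM1 replicates 1, 2 and 3. Median centring, the median of probe sets, array weights, robust moderation and leaving out the genes with the largest spread kept all 3 counts within 1.5 times. The last of these tested 14831 genes. Positive calls were 67.8% of called differences, against 86.1% with the 18S level and 78.5% with the spike level. Both signs of the opposite genes were kept in 342 of 347 measured without _x_at and _s_at probe sets, and in all that were measured under every other refit of the gene means. ASNS reversed to -0.298 without _x_at and _s_at probe sets.

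Replicate numbers did not pair the arrays: over 18 same-numbered pairs the correlation of deviations ran from -0.055 to 0.068. With the replicate block the counts were 3013, 321 and 222. The planned filter on dim probe sets was not run, because ratios hold no level.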

Other observations

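Families outside the lists, chosen after their values were seen, are given as counts. Over all genes, 5.85% were called higher and 13.2% lower in KOPT-K1, and 4.95% higher and 4.37% lower in HPB-ALL. Mitochondrial ribosomal proteins fell in 21 of 72 cases and rose in 0 in HPB-ALL (limma, 0 also at an unadjusted p under 0.05), while in KOPT-K1 11 rose and 9 fell. Their difference was negative for 20 and positive for 3 (31.9% called, against 16.8% of all genes), with a median of -0.13, and 5 were called lower in HPB-ALL and higher in KOPT-K1. With 18S as a covariate, the median was -0.14 and 2 were called.

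Zinc finger genes named ZNF fell in 90 of 502 cases and rose in 18 in KOPT-K1, and rose in 35 and fell in 8 in HPB-ALL. The difference was positive for 103 and negative for 14 (23.3% called), with a median of 0.12, or 0.14 with the 18S level, where 5 were called. Zinc finger genes share related sequence, which probe sets may not tell apart. Antisense and divergent transcripts (1016 measured) rose in 61 and fell in 33 cases in KOPT-K1, and rose in 40 and fell in 4 in HPB-ALL. Their difference was positive for 51 and negative for 41, with a median of -0.07, and 11 rose in HPB-ALL while they fell in KOPT-K1. That is 9.06% with a called difference, against 16.8% of all genes, and 1.08% in opposite directions with HPB-ALL the higher, against 1.87%.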
